A study of Mus musculus with 4 samples.

Results

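The gasdermins are a small family of proteins that can open pores in cell membranes. The members were chosen by name from the deposited count tables, as every symbol beginning with Gsdm, and there were 12 of 25239 gene symbols. They were the skin-type genes Gsdma, Gsdma2 and Gsdma3, the Gsdmc group of Gsdmc, Gsdmc2, Gsdmc3 and Gsdmc4 with its pseudogenes Gsdmcl1, Gsdmcl2 and Gsdmcl-ps, and the single genes Gsdmd and Gsdme. The older symbol Dfna5 of Gsdme was not used in the tables. The interest in Gsdmc came from its ratios in these same libraries, so those ratios are given as a description.

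The 4 RNA-seq libraries came from tumors of B16, a mouse melanoma line, placed subcutaneously in B6 mice. The labels describe CTX, an abbreviation they do not expand, as given into the peritoneum 1 day before a cell transfer that they call ACT, and they name no group that went without it. For the MV left library, left tumors got free MV by injection and the mice got TRP-1 T cells intravenously. For TRP-1MV, the mice got intravenous TRP-1MV cells, which the protocol writes as TRP-1 TMV. For the Remote library, right tumors without any injection were taken from mice treated as for MV left. For CTX, left tumors got PBS, and neither T cells nor MV are listed. Table headers write MYXV for MV, which commonly stands for myxoma virus. Treatments started at day 7 and harvest was 12 days past the transfer. MV left and TRP-1MV are called the virus-treated tumors here. The source label names a melanoma cell line, whereas the protocol takes RNA from tumor tissue.

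With 1 library a group, no difference between groups could be tested. An n of 2 stands in the labels, and pooling of animals is not described. Total counts ran from 12375526 to 21790759. All 20 listed melanocyte genes had reads in every library, from 11 reads upward. The summed level of those 20 genes was 7027 TMM-scaled CPM in the MV left library, 6586 in TRP-1MV, 29239 in the Remote library and 28706 in CTX. The structural RNA genes Rn45s, Rpph1 and Rmrp, with Lars2, held 1.64% of reads in the MV left library, 1.62% in TRP-1MV, 0.164% in the Remote library and 0.141% in CTX. In bulk tumors, fewer cells of a type and less RNA per cell cannot be told apart.

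A gasdermin is made as an inactive protein in which the carboxyl-terminal part holds back the pore-forming amino-terminal part. Proteases cut the link between them. Gsdmd is cut by the inflammatory caspases in myeloid cells, which releases interleukin 1 and can end in pyroptosis, a lytic cell death. Gsdme can be cut by granzyme B, the protease that cytotoxic lymphocytes deliver to their targets. Human GSDMC can be cut by caspase 8 and was first described in melanoma cells. In mice the Gsdma genes are known from skin and hair follicles, and the Gsdmc group from the gut.

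The Gsdmc group forms a cluster on mouse chromosome 15, and its members are near copies. The start of each coding sequence is shown because it lets the closeness of the copies be seen. Positions are from GENCODE M21 on mm10, all on the minus strand, and each line holds the first 60 coding bases of the transcript with the longest coding sequence. Capitals mark the bases that differ from Gsdmc.
Gsdmc (chr15:63804533-63804592): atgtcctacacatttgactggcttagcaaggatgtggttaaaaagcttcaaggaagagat
Gsdmc2 (chr15:63835884-63835943): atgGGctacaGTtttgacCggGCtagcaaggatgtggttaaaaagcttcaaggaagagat
Gsdmc3 (chr15:63869238-63869297): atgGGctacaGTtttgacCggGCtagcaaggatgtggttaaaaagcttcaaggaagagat
Gsdmc4 (chr15:63902871-63902930): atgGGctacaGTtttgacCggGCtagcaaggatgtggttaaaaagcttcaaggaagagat

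Each of the 3 copies differs from Gsdmc at 7 of these 60 bases, and the 7 letters are the same in all 3. Over the whole coding sequence, aligned bases of Gsdmc were 87.9% identical to Gsdmc2, 88.2% to Gsdmc3 and 89.2% to Gsdmc4. Gsdmc2 and Gsdmc3 were 97.3% identical. Of the 50-base windows in Gsdmc transcripts, 16.1% occur letter for letter in another family transcript, with a longest shared run of 185 bases. The same share was 51.3% for Gsdmc2, 46.0% for Gsdmc3 and 39.0% for Gsdmc4. No 50-base window of Gsdmd or Gsdme occurs in another member. The authors' rule for reads that fit several places is not given in the sources used here, so the split of reads among the Gsdmc copies is uncertain. Gsdmc2, Gsdmc3 and Gsdmc4 had at most 5 reads in any library, against 230 to 6595 for Gsdmc.

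Of the 12 members, 3 passed the minimum mean of 10 reads over the 4 libraries: Gsdmc, Gsdmd and Gsdme. Each of the 3 had at least 66 reads in every library. The other 9 had at most 9 reads in any library, and the 3 pseudogenes had 0 reads in all 4. A count of 0 allowed up to 0.222 TMM-scaled CPM in the MV left library, 0.186 in TRP-1MV, 0.151 in the Remote library and 0.156 in CTX, by the limit of 3 counts. Intervals in brackets are at 95% and cover counting error only, as do these limits: exact Poisson for a level, exact conditional binomial for a ratio of libraries, exact Clopper-Pearson for a share. Calls, higher or lower, needed a ratio of at least 2 in either direction and an interval without equality.

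Gsdmc (chromosome 15, 63775968 to 63808759) was by far the most abundant gasdermin in the Remote library and in CTX. Its level was 17.0 TMM-scaled CPM [14.9, 19.4] in the MV left library, from 230 reads. It was 17.9 [15.9, 20.1] in TRP-1MV, from 288 reads. The level was 331 [323, 339] in the Remote library, from 6595 reads, and 325 [317, 334] in CTX, from 6242 reads. The Remote library and CTX stood high and close together, and the MV left library and TRP-1MV low and close together, with no overlap of the intervals between those pairs.

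The log2 ratio of Gsdmc was −4.26 [−4.45, −4.07] in the MV left library against CTX, a level 19.1-fold lower. In TRP-1MV against CTX it was −4.19 [−4.36, −4.02], 18.2-fold lower. These 2 comparisons share the CTX library. In the Remote library against CTX the ratio was 0.03 [−0.02, 0.08], which was not called. Counting from the lowest ratio, Gsdmc was the 5th of 13357 genes compared in the MV left library against CTX and the 6th in TRP-1MV against CTX. Against the Remote library its log2 ratio was −4.28 [−4.48, −4.09] in the MV left library and −4.21 [−4.39, −4.04] in TRP-1MV. Between TRP-1MV and the MV left library it was 0.07 [−0.18, 0.33], also not called.

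**Figure D1:**
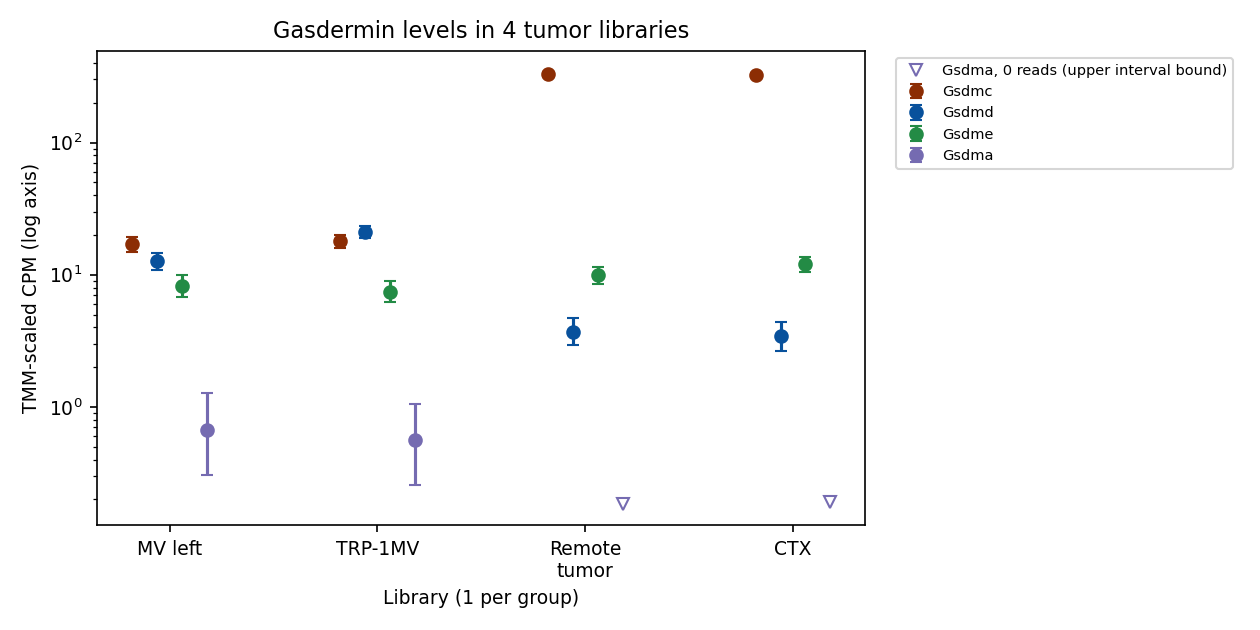
Level of Gsdmc, Gsdmd, Gsdme and Gsdma in TMM-scaled CPM (log axis) in each of the 4 libraries, 1 per group, with 95% exact Poisson intervals; open triangles mark the upper interval bound where Gsdma had 0 reads. Gsdmc lies at 17.0 and 17.9 in the MV left library and TRP-1MV, against 331 and 325 in the Remote library and CTX, and Gsdmd lies highest in TRP-1MV.

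Gsdmd (chromosome 15, 75862327 to 75867408), the executor of inflammasome pyroptosis, had the opposite order. Its level was 12.7 TMM-scaled CPM [10.8, 14.7] in the MV left library, from 171 reads, and 21.0 [18.8, 23.3] in TRP-1MV, from 338 reads. It was 3.72 [2.92, 4.67] in the Remote library, from 74 reads, and 3.44 [2.66, 4.38] in CTX, from 66 reads. TRP-1MV stood highest and the MV left library next, and the intervals of the Remote library and CTX overlapped each other alone. The log2 ratio was 1.88 [1.46, 2.31] in the MV left library against CTX and 2.61 [2.22, 3.01] in TRP-1MV against CTX, both called higher. In the Remote library against CTX it was 0.11 [−0.39, 0.61].

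Gsdmd was the one measured gasdermin whose levels in the 2 virus-treated tumors stood apart. Its log2 ratio in TRP-1MV against the MV left library was 0.73 [0.46, 1.00], a ratio of 1.66. The interval excluded equality, and the ratio was under 2, so it was not called. By this ratio Gsdmd was 305th from the highest of 13357 genes. The 11 macrophage markers had a median log2 ratio of 0.48 in the same comparison, none called, and a summed level of 1440 TMM-scaled CPM in TRP-1MV and 986 in the MV left library. The 9 neutrophil markers summed to 268 in TRP-1MV and 169 in the MV left library. Of the 5 that passed the minimum, 1 was called higher, S100a9 at 1.20, beside 0.562% of all genes. The part of these cells in the Gsdmd ratio was not tested.

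Gsdme (chromosome 6, 50188888 to 50263862), a gasdermin that granzyme B can cut, varied least. Its level was 8.21 TMM-scaled CPM [6.76, 9.89] in the MV left library, from 111 reads, and 7.45 [6.18, 8.91] in TRP-1MV, from 120 reads. It was 9.90 [8.56, 11.4] in the Remote library, from 197 reads, and 12.0 [10.5, 13.7] in CTX, from 231 reads. The CTX library stood highest, and its interval overlapped that of the Remote library. The log2 ratio was −0.55 [−0.89, −0.22] in the MV left library against CTX, −0.69 [−1.02, −0.37] in TRP-1MV against CTX and −0.28 [−0.56, −0.00] in the Remote library against CTX. None of these ratios reached 2, and none was called. On a scale set by 13 housekeeping genes, of which 6 were themselves called lower in both virus-treated tumors on the TMM scale, the first was 0.08 and the second −0.07, so the direction in the virus-treated tumors depends on the scaling.

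The promoter of Gsdme is shown because it is the one among the 3 measured members found in the RefSeq promoter table (GRCm38.p6), which also holds Gsdma3 and Gsdmc3. The window runs from 250 bases before to 50 after the RefSeq start, 300 bases at chr6:50261720-50262019 on the minus strand. It lies inside the GENCODE locus, which reaches to 50263862, so a start at that end is not covered. It was searched on both strands for CACGTG and CATGTG, motifs bound by the melanocyte factor MITF. No match was found, so no base is in capitals.
Gsdme promoter: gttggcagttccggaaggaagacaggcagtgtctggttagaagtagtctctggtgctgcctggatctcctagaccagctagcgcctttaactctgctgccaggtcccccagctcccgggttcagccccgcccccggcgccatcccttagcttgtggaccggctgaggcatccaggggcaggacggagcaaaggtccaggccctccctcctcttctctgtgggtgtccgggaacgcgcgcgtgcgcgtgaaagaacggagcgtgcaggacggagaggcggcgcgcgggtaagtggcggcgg

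Of 32851 promoter windows, 7.15% hold CACGTG and 14.2% hold CATGTG. The windows of Gsdma3 and Gsdmc3 hold neither.

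The skin-type genes had few reads. Gsdma (chromosome 11, 98664351 to 98677708) had 9 reads in the MV left library, 9 in TRP-1MV, 0 in the Remote library and 0 in CTX. With CTX at the floor of 3 counts, its level was 4.26-fold higher in the MV left library and 3.57-fold higher in TRP-1MV. Counting error of the 9 reads allows smaller ratios. The lower interval bounds of the log2 ratio against CTX were 1.49 in the MV left library and 1.23 in TRP-1MV. Gsdma did not pass the minimum, so these values are a description. Gsdma3 had 5, 2, 1 and 0 reads in the same order of libraries, and Gsdma2 had 1 read, in CTX. The keratinocyte markers were low as well: the 13 of them summed to 15.8 TMM-scaled CPM in the MV left library, 15.7 in TRP-1MV, 4.57 in the Remote library and 5.79 in CTX. Of these 13, 4 had no read in the MV left library, 5 in TRP-1MV, 9 in the Remote library and 10 in CTX. The 2 that passed the minimum were both called higher against CTX, at 1.15 and 2.87 in the MV left library and 1.07 and 2.87 in TRP-1MV. Of all genes, 18.1% and 18.5% were called higher in these comparisons. Krt5 and Krt14, the keratins of basal skin cells, had 1 and 1 read in the MV left library, 9 and 4 in TRP-1MV, 2 and 0 in the Remote library, and 0 and 0 in CTX. The part of skin cells in the Gsdma reads was not tested. Of the Gsdmc copies, Gsdmc2 had 1, 0, 5 and 1 reads, Gsdmc3 had 0, 0, 4 and 3, and Gsdmc4 had 2, 2, 0 and 4, in the order MV left library, TRP-1MV, Remote library and CTX.

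The make-up of the family differed between libraries. Gsdmc held 43.5% [39.2, 47.8] of 529 gasdermin reads in the MV left library and 37.9% [34.5, 41.5] of 759 in TRP-1MV. It held 95.9% [95.4, 96.4] of 6876 in the Remote library and 95.3% [94.8, 95.8] of 6548 in CTX. Gsdmd held 32.3% in the MV left library, 44.5% in TRP-1MV, 1.08% in the Remote library and 1.01% in CTX, so in TRP-1MV it had more reads than Gsdmc. These shares do not depend on the scaling of the libraries, but they are not corrected for length.

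Per kilobase of the transcript with the longest coding sequence, the level of Gsdmc was 7.08 TMM-scaled CPM per kilobase in the MV left library, 7.44 in TRP-1MV, 138 in the Remote library and 135 in CTX. That of Gsdmd was 7.06, 11.7, 2.07 and 1.92 in the same order. That of Gsdme was 3.28, 2.98, 3.96 and 4.81. On this scale the level of Gsdmc was 1.00 times that of Gsdmd in the MV left library and 0.635 times in TRP-1MV, against 66.4 times in the Remote library and 70.5 times in CTX. Over Gsdme it was 2.16 times in the MV left library, 2.50 in TRP-1MV, 34.8 in the Remote library and 28.1 in CTX. Gsdme has long annotated exons in some transcripts, and per kilobase of all merged exons, a length tried after the values were seen, the last 4 ratios were 11.0, 12.7, 177 and 143.

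**Figure D2:**
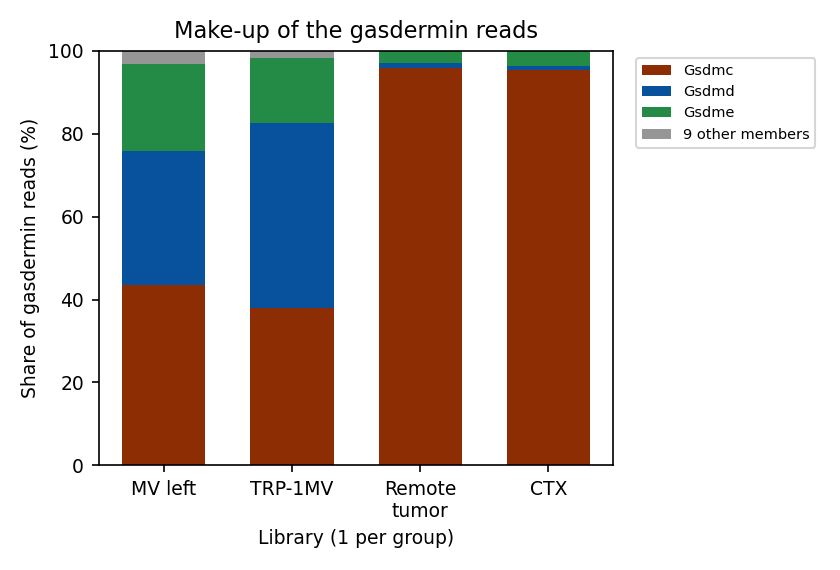
Share (%) of all reads on the 12 gasdermin genes held by Gsdmc, Gsdmd, Gsdme and the 9 other members in each library, not corrected for length. Gsdmc holds 43.5% and 37.9% in the MV left library and TRP-1MV, against 95.9% and 95.3% in the Remote library and CTX.

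Among the 3 members that passed the minimum, 1 was called higher (Gsdmd) and 1 lower (Gsdmc) in the MV left library against CTX, where 18.1% of all 13357 genes were called higher and 11.1% lower. The same 2 members were called in TRP-1MV against CTX, where 18.5% of genes were higher and 11.7% lower. They were also called in the MV left library against the Remote library, with 18.6% and 11.7% of all genes, and in TRP-1MV against the Remote library, with 18.8% and 12.1%. No member was called in the Remote library against CTX, where 0.457% of genes were higher and 0.247% lower, or in TRP-1MV against the MV left library, where 0.562% were higher and 0.217% lower. Calls of this kind were thus common in the comparisons that set a virus-treated tumor against the Remote library or CTX, and Gsdmc lay near the low end of all ratios.

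Gsdmc was then set against the melanocyte genes, which were lower in the same tumors. Of the 20 listed genes, 15 were called lower and none higher in the MV left library against CTX, where 11.1% of all genes were lower. The median log2 ratio of the 20 was −1.88. Mlph, which links pigment granules to their motor, was the lowest at −2.65, and Kit, the stem cell factor receptor, the highest at 0.31. In TRP-1MV against CTX the same numbers were called, with a median of −1.96, beside 11.7% of all genes called lower. In the Remote library against CTX 1 was called lower, with a median of 0.04, beside 0.247% of all genes. Under housekeeping scaling all these log2 ratios in the virus-treated tumors are higher, by 0.63 in the MV left library and 0.62 in TRP-1MV. The genes called lower were then 12 in the MV left library, without Mitf, Gpr143 and Rab27a, and 14 in TRP-1MV, without Rab27a. Kit was then called higher in TRP-1MV, at 1.55 [1.23, 1.88], and stood at 0.94 in the MV left library, not called.

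The difference between the log2 ratio of Gsdmc and that of a melanocyte gene does not depend on the scaling. Since Gsdmc was picked for its low ratio in these libraries, the differences are a description. The difference was below 0 for 20 of 20 genes in the MV left library against CTX. The median difference was −2.37 [−2.57, −2.18], so the Gsdmc ratio lay a further 5.18-fold down. In TRP-1MV against CTX it was also below 0 for 20 of 20, with a median of −2.22 [−2.40, −2.05], a further 4.67-fold. The median in the Remote library against CTX was −0.02 [−0.08, 0.04]. Intervals of differences are normal intervals from the counts, and they leave out differences between animals. Those of the medians also leave out the spread over the 20 genes. The differences ran from −4.57 to −1.61 in the MV left library and from −5.12 to −1.42 in TRP-1MV.

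Nearest to Gsdmc was Mlph, at a difference of −1.61 [−1.81, −1.40] in the MV left library and −1.42 [−1.61, −1.24] in TRP-1MV. Mc1r, the receptor for melanocyte-stimulating hormone, followed at −1.81 in the MV left library and −1.58 in TRP-1MV. Farthest was Kit, at −4.57 in the MV left library and −5.12 in TRP-1MV. Oca2, Ednrb, Trpm1 and Pax3 were not called lower in either tumor, and their differences from Gsdmc ran from −3.73 to −4.06 in the MV left library and from −3.64 to −4.10 in TRP-1MV. The melanocyte genes thus did not share 1 ratio, and Gsdmc lay below the whole range of them.

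The same differences can be written as reads. For every 1000 reads of Tyrp1, a melanosome enzyme and the antigen named by the T cells, Gsdmc had 8.63 reads in the MV left library and 9.56 in TRP-1MV, against 34.6 in the Remote library and 34.8 in CTX. Per 1000 reads of Sox10, a lineage factor, it had 70.6 in the MV left library and 76.7 in TRP-1MV, against 322 in the Remote library and 349 in CTX. Per 1000 reads of Mitf, the master factor of the lineage, it had 94.3 in the MV left library and 107 in TRP-1MV, against 690 in the Remote library and 588 in CTX.

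**Figure D3:**
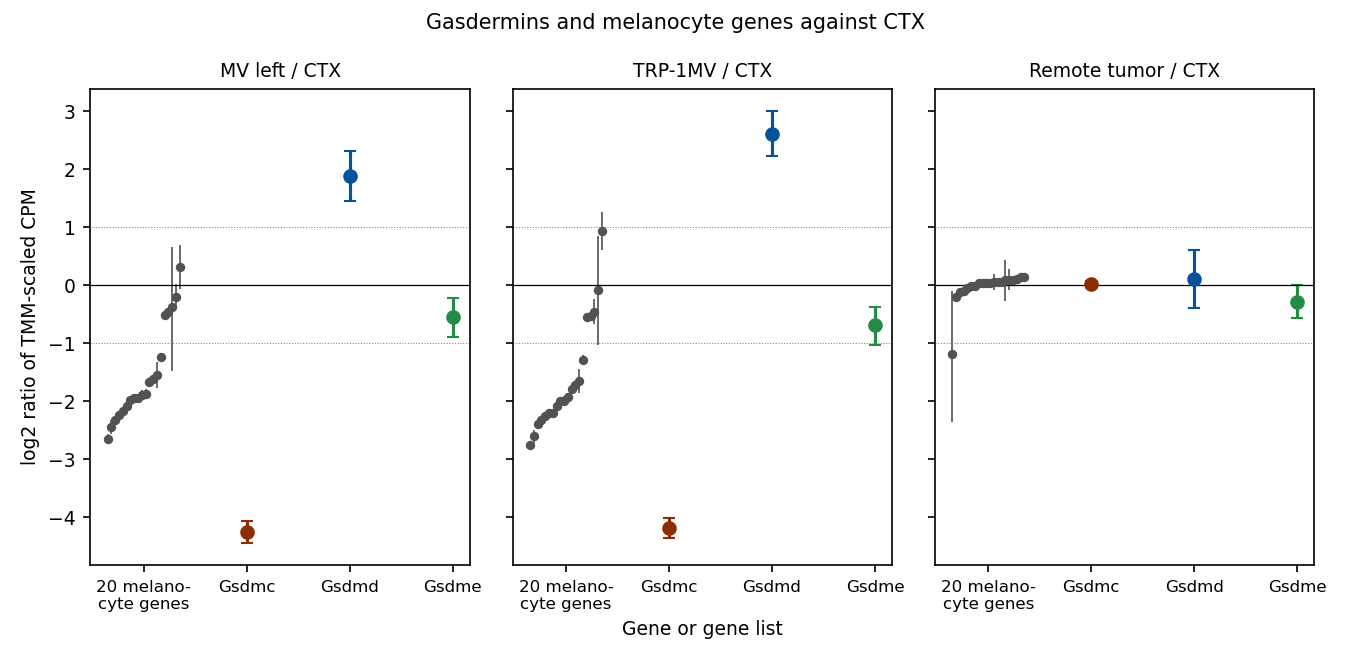
log2 ratio of TMM-scaled CPM against CTX for 20 melanocyte genes (grey, in order of ratio), Gsdmc, Gsdmd and Gsdme in the MV left library, TRP-1MV and the Remote library, with 95% counting intervals; dotted lines mark a ratio of 2. Gsdmc lies at −4.26 and −4.19 in the virus-treated tumors, below all 20 melanocyte genes, and at 0.03 in the Remote library; Gsdme, at −0.55 and −0.69 here, moves to 0.08 and −0.07 on the housekeeping scale.

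The genes beside Gsdmc on the chromosome did not have its ratio. Fam49b starts 3.43 kilobases past the end of the cluster and had 1682 reads in the MV left library, 2080 in TRP-1MV, 2414 in the Remote library and 2451 in CTX. Its log2 ratio against CTX was −0.04 in the MV left library and 0.01 in TRP-1MV. Asap1, the next gene compared, stood at −0.33 and −0.06. On the other side the nearest genes compared were Pvt1 and Myc, more than a megabase away, and none of the 6 neighbours was called in any comparison. The shares of all genes called higher, 18.1% and 18.5%, and lower, 11.1% and 11.7%, in the virus-treated tumors against CTX stand beside all counts of neighbours here. The neighbours ranged from −0.69 to 0.57 in the MV left library against CTX. Beside Gsdmd, 1 of 6 neighbours was called higher in both virus-treated tumors against CTX, the transcription factor gene Mafa at 1.00 and 1.17. Beside Gsdme, Cycs, encoding cytochrome c, was lower at −1.02 and −1.05, and Npy, with 0 reads in CTX, and the gene model 5430402O13Rik were higher. The gene Mpp6 overlaps the Gsdme locus on the opposite strand without sharing annotated exon bases, and its ratios were −0.61 and −0.76. Of the genes around the Gsdma cluster, Ikzf3, a lymphocyte factor, stood at 5.76 and 5.81, and Csf3 and Grb7 were higher as well. Ikzf3, Csf3, Grb7, Npy and 5430402O13Rik had at most 7 reads in the Remote library and in CTX. They passed the minimum through the virus-treated tumors, so their calls are a description.

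By the pattern over the 4 libraries, the genes most like Gsdmc were Aldh1a3, a retinaldehyde dehydrogenase gene, Kank4, Fam178b, Clvs1, Slc35f1 and Mcoln3, a cation channel gene of endolysosomes. Likeness was the root mean square difference of log2(CPM + 0.5) after each gene was centred on its own mean, and it was 0.177 for Aldh1a3 and 0.599 for Mcoln3. Aldh1a3 had 14 reads in the MV left library, 22 in TRP-1MV, 494 in the Remote library and 458 in CTX. None of these 6 was on the list of melanocyte genes, which is not a full set, so this does not place them outside the lineage. In the MV left library Aldh1a3 was at 1.04 TMM-scaled CPM and Fam178b at 0.666, where the added 0.5 sets part of their likeness. The distances from Gsdmc were long beside those of the other members, since few genes had ratios as low.

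The 6 genes nearest to Gsdmd were St8sia1, Fcrlb, Rims3, Oasl1, Hdc and Slc1a2, at differences of 0.0401 to 0.0644. Oasl1, an interferon-stimulated gene, had 112 reads in the MV left library, 200 in TRP-1MV, 43 in the Remote library and 40 in CTX. The other 5 had at most 11 reads in the Remote library and in CTX, where the added 0.5 sets much of their likeness. The 6 nearest to Gsdme were Ccnc (cyclin C), Dph1, Cip2a, Rasl11b, Ahi1 and Pigw, at 0.0209 to 0.0334, with ratios as small as those of Gsdme.

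The other genes of the pathway were taken from lists, 41 genes in all, of which 36 passed the minimum count. Of these 36, 16 were called higher and none lower in the MV left library against CTX, and the same numbers in TRP-1MV against CTX, against the 18.1% and 18.5% of all genes given above. The median of all genes was −0.05 in the MV left library and −0.07 in TRP-1MV. In the Remote library against CTX 2 were called higher, Nlrp3 and Il1b, and none lower, beside 0.457% and 0.247% of all genes. Against the Remote library, 16 were called higher and none lower in MV left, beside 18.6% and 11.7% of all genes. In TRP-1MV 16 were higher and 1 lower against the Remote library, beside 18.8% and 12.1%. Several of the pathway genes passed the minimum only through the virus-treated tumors, so their counts are a description.

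Of the 10 proteases that cut gasdermins, 8 passed the minimum. In the MV left library and in TRP-1MV against CTX 6 were called higher, beside 18.1% and 18.5% of all genes. Gzmb, granzyme B, which cuts Gsdme, had 2771 reads in the MV left library, 3498 in TRP-1MV, 25 in the Remote library and 27 in CTX. Its log2 ratio against CTX was 7.19 [6.64, 7.79] in the MV left library and 7.27 [6.73, 7.87] in TRP-1MV. Among the proteases that cut Gsdmd, Casp1 and Casp4 were called higher. Casp1, the inflammasome caspase, had 171 reads in the MV left library, 234 in TRP-1MV, 16 in the Remote library and 18 in CTX, with log2 ratios of 3.75 in the MV left library and 3.95 in TRP-1MV against CTX. Casp4, the mouse caspase 11 gene and sensor of lipopolysaccharide, stood at 2.52 and 2.94. Gzma, which cuts human GSDMB, a gene that mice lack, stood at 5.27 and 5.47 against 4 reads in CTX.

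Casp8, which in human cells cuts GSDMC and can also cut Gsdmd, was not among the higher genes. It had 729 reads in the MV left library, 979 in TRP-1MV, 1807 in the Remote library and 1667 in CTX, with log2 ratios of −0.69 [−0.82, −0.56] and −0.52 [−0.63, −0.40] against CTX, not called. Casp6 stood at −0.76 and −0.56, not called. On the housekeeping scale Casp8 stood at −0.06 and 0.10, and Casp6 at −0.13 and 0.06. The neutrophil proteases Elane and Ctsg, which can cut Gsdmd, had at most 7 reads in any library and did not pass the minimum.

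Among 11 inflammasome genes, 9 passed the minimum and 7 were called higher in both virus-treated tumors against CTX, beside 18.1% and 18.5% of all genes. Nlrp3, a sensor of cell damage, had 184 reads in the MV left library, 368 in TRP-1MV, 26 in the Remote library and 6 in CTX. Its log2 ratio against CTX was 5.44 in the MV left library, 6.19 in TRP-1MV and 2.06 [0.75, 3.63] in the Remote library. Aim2, a sensor of DNA in the cytosol, stood at 5.16 in the MV left library and 5.54 in TRP-1MV. The others called were Naip2 at 3.76 and 4.37, Naip5 at 5.07 and 5.45, Nlrc4 at 3.87 and 4.37, Mefv at 3.75 and 4.50, and Nlrp1a at 2.92 and 3.13. Pycard, the adaptor ASC that links sensors to caspase 1, was at −0.03 and 0.07, and Nek7, a partner of Nlrp3, at −0.50 and −0.48, neither called. On the housekeeping scale Pycard stood at 0.60 [0.35, 0.84] and 0.70 [0.47, 0.92], also not called, and Nek7 at 0.13 and 0.14. Aim2, Naip5, Nlrc4, Mefv and Nlrp1a had at most 8 reads in the Remote library and in CTX, and passed the minimum through the virus-treated tumors. The sensor gene Nlrp1b, with 5, 11, 6 and 12 reads in the order MV left library, TRP-1MV, Remote library and CTX, did not pass it.

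Of 5 genes for released proteins and membrane rupture, the cytokine genes Il1a and Il1b were called higher in both virus-treated tumors. Il1b had 1159 reads in the MV left library, 2038 in TRP-1MV, 70 in the Remote library and 11 in CTX, with log2 ratios of 7.22, 7.79 and 2.62 against CTX. Il1a had 1 read in CTX and 853 and 1714 in the MV left library and TRP-1MV. Il18, the other cytokine released through Gsdmd pores, had 35, 25, 66 and 56 reads in the order MV left library, TRP-1MV, Remote library and CTX, with log2 ratios of −0.17 and −0.91 against CTX, not called. In TRP-1MV against the Remote library Il18 was called lower at −1.10 [−1.82, −0.41], and stood at −0.43, not called, on the housekeeping scale. Ninj1, which ruptures the membrane after pore formation, stood at −0.54 and −0.34, and Hmgb1, a nuclear protein that leaks from dying cells, at −0.52 and −0.67, neither called. On the housekeeping scale Ninj1 stood at 0.09 and 0.28, and Hmgb1 at 0.11 and −0.05.

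Of 7 genes that act on Gsdmd, 1 was called higher in each virus-treated tumor against CTX, a share near the 18.1% and 18.5% of all genes. It was Irf2, a factor known to act on Gsdmd transcription, and its log2 ratio was 1.48 [1.31, 1.65] in the MV left library and 1.55 [1.39, 1.72] in TRP-1MV against CTX. Irf1 stood at 0.77 and 0.63, not called, and at 1.40 and 1.25 on the housekeeping scale, where it was called higher. The palmitoyltransferase genes Zdhhc5 and Zdhhc9 and the Ragulator and Rag genes Lamtor1, Rraga and Rragc, which promote pore assembly, ranged from −0.59 to −0.01 in the MV left library and from −0.49 to −0.08 in TRP-1MV. On the housekeeping scale they ranged from 0.04 to 0.61 and from 0.13 to 0.54, none called, so their direction depends on the scaling. None of the 7 membrane repair genes of the ESCRT machinery was called in the MV left library, TRP-1MV or the Remote library against CTX, and they ranged from −0.30 to 0.18, from −0.51 to 0.23 and from −0.09 to 0.10 in that order. Pjvk, pejvakin, a relative of the gasdermins known from hearing, had 0, 2, 2 and 3 reads and did not pass the minimum.

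**Figure D4:**
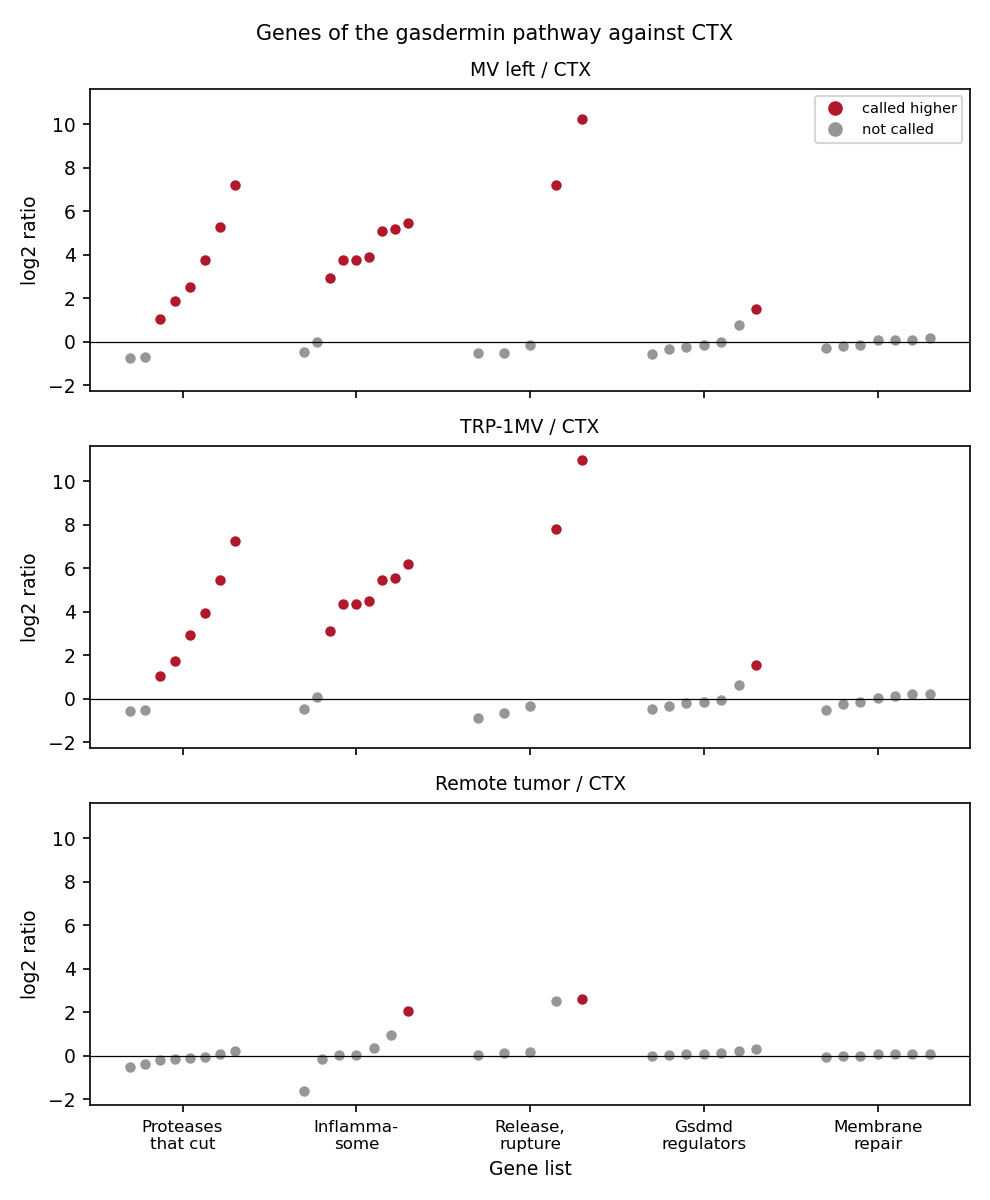
log2 ratio of TMM-scaled CPM against CTX for the pathway genes that passed the minimum count, by list, in the MV left library, TRP-1MV and the Remote library; each point is 1 gene, red where it was called higher. In the virus-treated tumors the red points lie among the proteases, the inflammasome genes and the cytokines, with Irf2 among the regulators, and in the Remote library 2 points, Nlrp3 and Il1b, are red.

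Markers of leukocytes moved in the same libraries as Gsdmd, Casp1 and Casp4. Of all genes, 18.1% and 18.5% were called higher in the MV left library and TRP-1MV against CTX, shares that stand beside the marker counts here. The 11 macrophage markers summed to 986 TMM-scaled CPM in the MV left library, 1440 in TRP-1MV, 111 in the Remote library and 87.8 in CTX, and 8 of 11 and 9 of 11 were called higher in the first 2 against CTX. The 10 T cell markers summed to 271, 272, 9.95 and 10.4 in the same order, and 10 of 10 were called higher in both. The 6 B cell markers summed to 55.9, 58.4, 0.804 and 0.834, with 0 reads for 2 of them in the Remote library and 3 in CTX. Of the 9 neutrophil markers, 5 passed the minimum and were called higher in both, while Ly6g and Retnlg, 2 defining genes, had at most 3 reads in any library. The 9 together had 35 reads in the Remote library and 24 in CTX, and the 6 B cell markers 16 and 16. Neutrophil and B cell markers thus passed the minimum mainly through the virus-treated tumors, so their counts are a description. The 7 fibroblast markers summed to 51.9, 51.3, 51.9 and 54.3, with none called. No macrophage, T cell, B cell or fibroblast marker had 0 reads in either virus-treated tumor. In the Remote library against CTX, where Nlrp3 and Il1b were called higher, 2 of the 11 macrophage markers were called higher as well, Adgre1 at 1.09 and Cd14 at 1.61. The 11 had a median of 0.33 and a lowest ratio of −0.68. The neutrophil marker Csf3r at 1.13 and the dendritic cell marker Itgax at 1.06 were also called higher there. Of the neutrophil markers that passed the minimum, 2 had a ratio there, and the other stood at −0.25. Of the 4 dendritic cell markers that passed, 1 was called, and the lowest stood at −0.29. All 7 dendritic cell markers summed to 9.50 TMM-scaled CPM in the Remote library and 9.91 in CTX. Of all genes, 0.457% were called higher in this comparison. The part of these cells in the gasdermin and pathway ratios was not tested.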

How the data were processed

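The deposited tables hold raw counts per gene symbol, with no normalization by the authors, 1 table for each of 4 libraries. Per the submitters' processing notes, HISAT2, featureCounts and the build mm10 were used; no source used here gives versions, annotation, strandedness or the handling of multi-mapping reads. Levels are CPM after TMM scaling of all 4 libraries in edgeR 4.0.16 under R 4.3.3. Genes with a mean of at least 10 reads were compared in 6 pairs of libraries in Python 3.11.15. This used pandas 2.3.3 and numpy 2.4.6, with intervals from scipy 1.17.1. The rule was tried on simulated Poisson counts, the model its intervals assume, so that trial does not cover differences between animals. Pairs with at most 3 reads in each library got no ratio. Positions and transcripts came from GENCODE M21, coding sequences were aligned with Biopython 1.88, and promoters came from RefSeq. Figures used matplotlib 3.10.9. DESeq2 1.42.0 size factors were 1 alternative.

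The members, lists and rules were chosen with earlier results of these data known. All members were named, and of the pathway lists the called genes or the extremes. Values of some listed genes are not reported here. With the fixed rule came the 6 nearest patterns per measured member and 3 neighbours on each side of a locus.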

Additional observations from a re-analysis of the deposited data

How the results depend on the processing

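Gsdmc kept its call in the 6 comparisons under every scaling, thinning and a prior count of 2. Scaled by total counts its log2 ratio was −4.01, and by housekeeping genes −3.63, in the MV left library against CTX, and −3.95 and −3.57 in TRP-1MV against CTX. Total counts added 0.24 to every log2 ratio in both comparisons, and the housekeeping scale 0.63 and 0.62. With means in place of medians, Gsdmc lay −2.71 from the melanocyte genes in the MV left library, −2.59 in TRP-1MV and 0.061 in the Remote library, where the median was −0.02. With no minimum count, 3 members were called higher in the MV left library against CTX (Gsdmd, Gsdma and Gsdma3), and 2 (Gsdmd and Gsdma) in TRP-1MV against CTX and in both virus-treated tumors against the Remote library. At a ratio of at least 4, 0 members were called higher in the MV left library against CTX or the Remote library. With intervals that exclude a ratio of 2, 1 pathway gene was called higher in the Remote library. Gsdmd kept its calls under the scalings, thinning and the prior count, from 1.84 to 2.51 in the MV left library and 2.55 to 3.23 in TRP-1MV against CTX. In the Remote library Gsdmd, at 74 and 66 reads, ranged from −0.37 to 0.13 over the alternatives, lowest after thinning to the smallest total, and was never called. No paired analysis was possible because no group held more than 1 library, and leaving out a replicate could not be run for the same reason.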
